A study of Mus musculus with 12 samples.

Results

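Accessible chromatin was examined at 7 genes of hepatic cholesterol handling, Srebf2, Sqle, Insig1, Insig2, Abca1, Abcg5 and Abcg8, out of 21883 protein-coding genes in the annotation. A peak belonged to a gene when it overlapped the gene's span or lay within 20 kb of it. Peaks joined over libraries gave 220 such regions, and 119 of these were tested because 3 or more libraries kept them, while 101 were not. The whole genome had 292424 regions, 138561 of them tested. All 12 libraries held 59 of the 119 (49.6%), against 44.6% of all tested regions, and 72 of the 119 lay inside one of the genes. The annotated spans of Abcg5 and Abcg8 overlap, and the genes share 20 regions, 13 of them tested. None of the 7 genes encodes an uptake receptor, so uptake is represented here only through Srebf2, which controls it.

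The libraries are ATAC-seq libraries, in which a transposase cuts and tags open DNA, from mouse hepatocytes obtained by collagenase perfusion. There were 3 mice in each of 4 groups: Alb-Cre/FBXL5F/F mice on 0.1% DDC, FBXL5F/F mice on 0.1% DDC, Alb-Cre/FBXL5F/F mice on a standard diet and FBXL5F/F mice on a standard diet, with each diet given for 2 weeks. All 12 mice carried floxed Fbxl5 alleles, and Cre was driven by the albumin promoter, which is active in hepatocytes. Whether Fbxl5 was also deleted in other liver cells is not stated. The first genotype is called Fbxl5-deleted and the second control. FBXL5 is part of a ubiquitin ligase that degrades an iron regulatory protein, and DDC (3,5-diethoxycarbonyl-1,4-dihydrocollidine) causes porphyrin build-up and cholestasis in mice. The ages of the mice are not stated. In bulk preparations, fewer cells of a type and less accessibility per cell cannot be told apart.

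Cholesterol in hepatocytes is held steady by feedback. SREBP-2, the product of Srebf2, is kept in the endoplasmic reticulum with SCAP by the INSIG proteins when sterols are plentiful. When sterols are scarce it is released and activates genes of synthesis, such as Sqle, and of uptake. Surplus cholesterol leaves through ABCA1 to apolipoprotein A-I, or through the ABCG5 and ABCG8 half-transporters into bile. Mir33, which lies inside Srebf2, encodes a microRNA known in mice to repress Abca1.

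The sequences shown lie upstream of annotated starts, each wholly within a region listed in all 12 libraries. They were also searched for exact matches to the core of the sterol response element, through which SREBP proteins act. They are RefSeq sequences of GRCm38.p6, the assembly of mm10, of 250 bases ending just before the start, on the strand of transcription. For Insig2 the sequence of the start at 121327678 is given. That of the start at 121328024 lies within the same region and is not printed. For Abcg5 and Abcg8 the 109 bases between their opposed starts (84683011 and 84683121) are given on the strand of Abcg8. Capitals mark matches on either strand to the sterol response element core, which is ATCACNCCA, to the E-box, which is CACGTG, or to the CCAAT box. They also mark the GC box, spelled GGGCGG, the GATA box, spelled AGATAA, and the nuclear receptor half-site, spelled AGGTCA.
Srebf2, chr15:82147019-82147268, plus strand: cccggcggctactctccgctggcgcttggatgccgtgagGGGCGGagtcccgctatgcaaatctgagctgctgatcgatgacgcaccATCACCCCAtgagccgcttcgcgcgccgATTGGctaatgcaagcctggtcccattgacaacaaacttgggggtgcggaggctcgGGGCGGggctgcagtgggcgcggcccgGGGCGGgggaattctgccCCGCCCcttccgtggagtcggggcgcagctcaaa
Insig1, chr5:28071162-28071411, plus strand: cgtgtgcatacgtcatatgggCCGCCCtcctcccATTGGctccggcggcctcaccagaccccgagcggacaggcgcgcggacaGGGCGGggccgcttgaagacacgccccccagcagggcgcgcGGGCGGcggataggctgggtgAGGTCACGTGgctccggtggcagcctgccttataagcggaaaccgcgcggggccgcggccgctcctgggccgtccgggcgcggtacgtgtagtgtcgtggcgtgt
Insig2, chr1:121327679-121327928, minus strand: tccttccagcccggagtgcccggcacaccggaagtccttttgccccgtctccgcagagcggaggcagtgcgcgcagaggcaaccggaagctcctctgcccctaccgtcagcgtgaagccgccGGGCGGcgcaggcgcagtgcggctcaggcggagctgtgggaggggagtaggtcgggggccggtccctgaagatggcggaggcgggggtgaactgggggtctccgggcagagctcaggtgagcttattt
Abca1, chr4:53159896-53160145, minus strand: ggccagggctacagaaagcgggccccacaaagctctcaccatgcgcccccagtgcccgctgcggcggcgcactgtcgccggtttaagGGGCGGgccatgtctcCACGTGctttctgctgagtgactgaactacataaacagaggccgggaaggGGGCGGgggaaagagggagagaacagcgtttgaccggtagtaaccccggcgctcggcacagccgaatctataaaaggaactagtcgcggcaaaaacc
Abcg5-Abcg8, chr17:84683012-84683120, plus strand: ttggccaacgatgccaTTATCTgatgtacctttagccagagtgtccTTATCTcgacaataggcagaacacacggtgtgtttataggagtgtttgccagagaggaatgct

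The Srebf2 sequence was the only one of these 5 with a match to ATCACNCCA, a motif held by 0.713% of 32817 promoters of the same length. Insig1 and Abca1 each had 1 CACGTG, which 6.02% of promoters hold, and in Insig1 it overlaps an AGGTCA (14.0% of promoters). The Abcg5-Abcg8 stretch had AGATAA at 2 places on the opposite strand, a motif in 9.99% of promoters, and no GC box. That box, in 32.7% of promoters, was present in the other 4, and the CCAAT box, in 33.8%, in Srebf2 and Insig1. All these shares are for 250 bases, so the 109 bases of Abcg5-Abcg8 have no background of their own length here. A match describes letters only and does not show that a factor was bound. Likewise, the lack of an exact match does not show that a response element is absent.

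A region's value is its rank by fold enrichment among a library's peaks, expressed as the log2 fold enrichment that this rank had on average in the 12 libraries. Where a library had not kept a region, it took the lowest value, 1.27, so a difference against a group without the region has no true size. Differences are log2 with their SE, tested with limma across all 138561 regions, and a region was called at a Benjamini-Hochberg adjusted p under 0.05. Read depth is unknown, since the files hold no counts. Libraries 1 and 3 of the Fbxl5-deleted mice on the standard diet were unlike the rest, listing 262080 and 260622 peaks, against 137034 to 202912 elsewhere, and these are called the libraries that stood apart. Values without both are given where they turn a direction or move a value by over 1.5 times, and that fit has 1 Fbxl5-deleted standard-diet library left. Strong peaks (−log10 q from 5 upward) numbered 70044 to 86745 in DDC libraries and 46949 to 70517 in standard-diet libraries. Of the hepatocyte markers with a listed start, 3 of 4 had a start peak in all 12 libraries. The 2 tested Fbxl5 regions differed between genotypes by −0.10 to 0.19, with adjusted p from 0.869 to 1 (limma), and do not check the deletion, whose position no source used here gives.

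DDC changed few of the cholesterol gene regions. In Fbxl5-deleted mice 2 of 119 were called (1.68%), against 3.17% of all regions, and both were lower on DDC (background 2.43% higher and 0.74% lower). In control mice 5 were called (4.20%), against 7.01% of all regions. Of these, 2 were higher on DDC, against 4.66% of all regions, and 3 were lower, against 2.35%. At an unadjusted p under 0.05 the counts were 23 in Fbxl5-deleted mice (19.3%, against 17.4% of all regions) and 21 in control mice (17.6%, against 21.3%). Without the libraries that stood apart no region of these genes was called in Fbxl5-deleted mice, and 11 had an unadjusted p under 0.05 (limma). The higher and lower counts also moved with the processing, as when only peaks of −log10 q 5 or more were kept, where 1 was higher and 0 lower in Fbxl5-deleted mice and 2 were higher and 0 lower in control mice. The median difference was −0.04 in Fbxl5-deleted mice and −0.08 in control mice, against 0.01 and −0.01 over all regions.

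Without any test, the 3 DDC libraries lay wholly above the 3 standard-diet libraries at 8 regions of Fbxl5-deleted mice and wholly below at 16 (13.4%), against 10.1% and 8.17% of all regions. In control mice these counts were 8 and 23 (19.3%), against 12.7% and 11.9% of all regions. The number of kept peaks at the 7 loci was 113.7 ± 11.8 in DDC libraries and 126.3 ± 9.97 in standard-diet libraries (SD, n = 6 each). By library it was 121, 102 and 133 in Fbxl5-deleted and 103, 109 and 114 in control DDC mice, against 115, 122 and 126 in Fbxl5-deleted and 120, 132 and 143 in control standard-diet mice. The difference of −12.7 did not pass an exact permutation test over libraries within genotype (two-sided, p = 0.11, smallest possible p = 0.005), and the groups overlapped. It turned to 6.33 with all deposited peaks and 7.50 with those of −log10 q 5 or more.

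**Figure D1:**
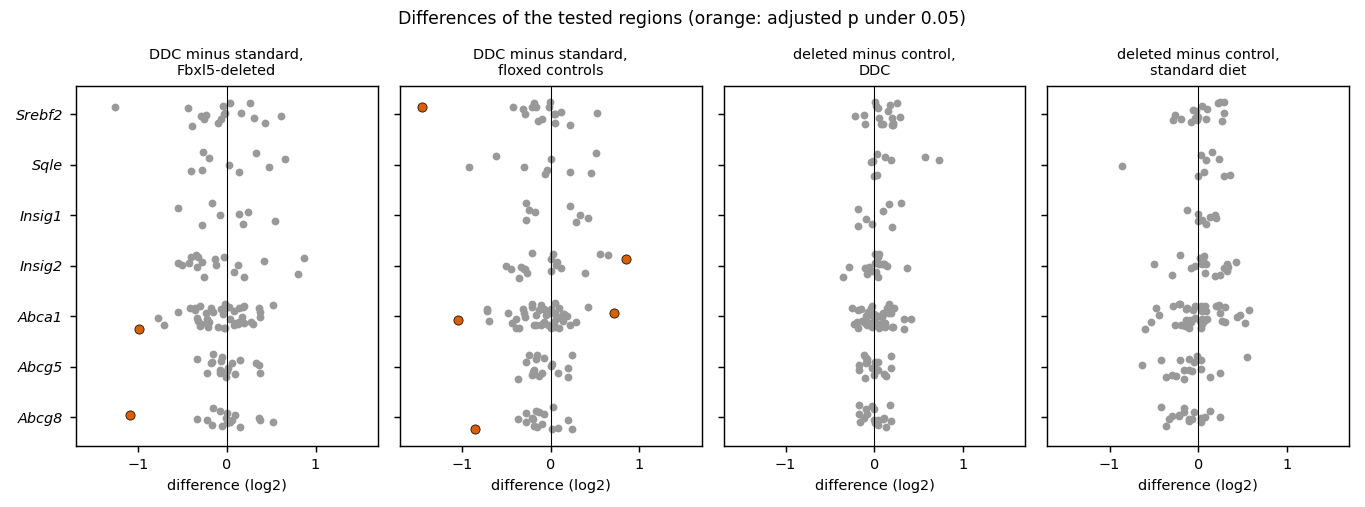
Differences (x axis, log2) of every tested region by gene (rows), with 1 panel per comparison. Grey points did not pass and orange points had a limma adjusted p under 0.05. Called regions are present in the diet panels, 2 in Fbxl5-deleted and 5 in control mice, and absent from both genotype panels.

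Open chromatin marked at least 1 annotated start of 6 genes, and the low-coordinate end of Sqle, in every library. A total of 7 such regions, including a second one at Srebf2 and the shared one of Abcg5 and Abcg8, were in all 12 lists. None was called in a comparison within 1 genotype or 1 diet or in the difference of diet effects, the lowest adjusted p being 0.145 (limma). On DDC their differences ran from −0.42 to −0.06 in Fbxl5-deleted mice, where 7 of 7 were negative, and from −0.30 to 0.12 in control mice, where 6 of 7 were. Their medians were −0.29 and −0.19. Over the 11347 start regions of the genome that were in all 12 lists, 72.0% and 61.0% were negative, with medians of −0.12 and −0.05. Without the libraries that stood apart, 5 of 7 were negative in Fbxl5-deleted mice (−0.29 to 0.11, median −0.05), against 61.4% of those of the genome.

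**Figure D2:**
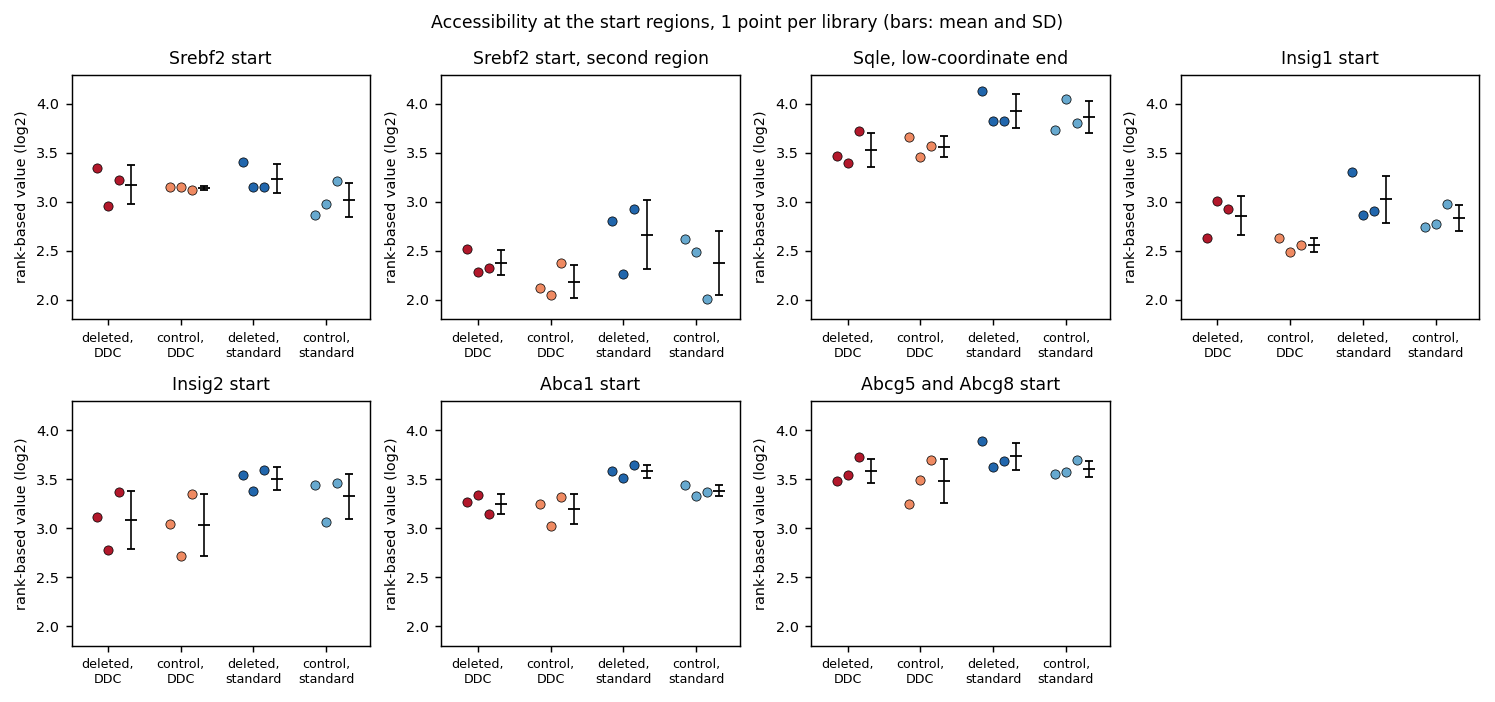
Rank-based value (y axis, log2) of the 7 start regions in each library (points), by group, with mean and SD (bars, n = 3). The points of the Sqle panel lie lower in both DDC groups than in the standard-diet groups of the same genotype, while the first Srebf2 panel overlaps throughout.

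Srebf2, the regulator, spans chromosome 15 from 82147269 to 82205379 on the plus strand (mm10), with 17 tested regions, 13 of them in all 12 lists. Its start region (82146754 to 82147510) had values of 3.34, 2.96 and 3.23 in Fbxl5-deleted DDC libraries, 3.15, 3.15 and 3.12 in control DDC libraries, 3.40, 3.16 and 3.15 in Fbxl5-deleted standard-diet libraries and 2.86, 2.98 and 3.21 in control standard-diet libraries. The groups overlapped in every comparison, and the control DDC libraries varied least. The diet difference was −0.06 ± 0.18 in Fbxl5-deleted mice and 0.12 ± 0.18 in control mice (limma, adjusted p = 0.895 and 0.754), and 0.02 in Fbxl5-deleted mice without the libraries that stood apart. A second region just past the start (82147535 to 82148191) differed by −0.29 ± 0.25 and −0.19 ± 0.25, with adjusted p of 0.588 and 0.728 (limma), and turned to 0.11 in Fbxl5-deleted mice without the libraries that stood apart. The highest region of the window (82127312 to 82128462) is 18.8 kb upstream, at the start of the neighbouring gene Ccdc134. It ranked between 604 and 1677 in every library and differed by at most 0.04 in any comparison between diets or genotypes, and by −0.06 to 0.07 without the libraries that stood apart.

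The called Srebf2 region lies deep inside the gene, at 82199597 to 82200239, 52.3 kb past the start and 1407 bp past the end of the Mir33 hairpin (82198122 to 82198190). The called region does not overlap the hairpin, and a link between them was not tested. The mature product of the hairpin, miR-33-5p, is printed with its seed, bases 2 to 8, in capitals (RefSeq, chromosome 15, plus strand).
mmu-miR-33-5p: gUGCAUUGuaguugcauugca
The region was listed in 1 of 3 Fbxl5-deleted and 0 of 3 control DDC libraries, against 3 of 3 standard-diet libraries of each genotype. Its value was 1.73 in the 1 DDC library that held it. In standard-diet libraries it was 2.49, 2.57 and 2.97 in Fbxl5-deleted mice and 2.88, 3.76 and 1.52 in control mice. The DDC libraries therefore lay below all standard-diet libraries in each genotype, although the control standard-diet libraries spread widely. The difference was −1.25 ± 0.38 in Fbxl5-deleted mice, which did not pass (adjusted p = 0.0787), and −1.45 ± 0.38 in control mice, which did (limma, adjusted p = 0.0235). It was −0.93 without control standard-diet library 2 (limma, adjusted p = 0.144), and the call also ended without control standard-diet library 1 or any 1 of the 3 control DDC libraries. Without the Fbxl5-deleted libraries that stood apart, the difference in that genotype was −1.15 (limma, adjusted p = 0.444). The nearest tested region on the other side of Mir33 (82196483 to 82196751) was in 3 lists, all of DDC mice.

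Sqle encodes squalene epoxidase, the enzyme of the first oxygenation step toward sterols. It spans chromosome 15 from 59315092 to 59331193, its strand and start are not in the promoter table used, and 9 regions were tested. The region over its low-coordinate end (59314446 to 59315507) was the strongest of the window, with deposited fold enrichments of 10.8 to 17.1 and ranks of 4341 to 22300. Its values were 3.47, 3.40 and 3.73 in Fbxl5-deleted DDC libraries, against 4.13, 3.82 and 3.83 in Fbxl5-deleted standard-diet libraries. In control mice they were 3.67, 3.46 and 3.57 on DDC, against 3.74, 4.05 and 3.81 on the standard diet. Every DDC library was thus below every standard-diet library of its genotype. The differences, −0.40 ± 0.14 and −0.30 ± 0.14, did not pass (limma, adjusted p = 0.145 and 0.231). Averaged over both genotypes, a comparison added after seeing the data, the difference was −0.35 ± 0.10 and passed (limma, adjusted p = 0.0266), but not without the libraries that stood apart (−0.30, limma, adjusted p = 0.153). In that comparison 10 of the 119 regions passed (3 higher and 7 lower on DDC), against 13% of all regions, and 6 of the 119 without the libraries that stood apart. Without the Fbxl5-deleted libraries that stood apart the difference in that genotype was −0.29 (limma, adjusted p = 0.637).

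A weaker region 14.9 kb from Sqle (59346044 to 59346414), inside the neighbour Washc5, had the largest difference of diet effects between genotypes among all members. Its values were 1.91, 2.80 and 2.56 in Fbxl5-deleted DDC libraries, 1.42, 1.64 and 2.05 in control DDC libraries, 1.27, 1.63 and 2.40 in Fbxl5-deleted standard-diet libraries and 2.25, 2.85 and 2.77 in control standard-diet libraries. On DDC it was thus mostly higher in Fbxl5-deleted mice and lower in control mice, where the libraries did not overlap. The diet difference was 0.66 ± 0.32 in Fbxl5-deleted mice (adjusted p = 0.286) and −0.92 ± 0.32 in control mice (limma, adjusted p = 0.0855). The difference of these, 1.58 ± 0.45, did not pass (limma, adjusted p = 0.848).

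Insig1 and Insig2 encode the proteins that retain SREBP in the endoplasmic reticulum. Insig1 spans chromosome 5 from 28071412 to 28078662 on the plus strand, and 8 regions were tested. Its start region (28070476 to 28072302) was the least strong of the first start regions, with a median fold enrichment of 6.85. The values were 2.63, 3.01 and 2.93 in Fbxl5-deleted DDC libraries, 2.63, 2.49 and 2.55 in control DDC libraries, 3.30, 2.87 and 2.91 in Fbxl5-deleted standard-diet libraries and 2.74, 2.78 and 2.98 in control standard-diet libraries. The control DDC libraries were below all control standard-diet libraries, while those of Fbxl5-deleted mice overlapped. Neither difference passed, at −0.17 ± 0.20 in Fbxl5-deleted and −0.27 ± 0.20 in control mice (limma, adjusted p = 0.711 and 0.482), and the difference in Fbxl5-deleted mice was −0.01 without the libraries that stood apart. The strongest region of the window (28054959 to 28055916) lies 15.5 kb upstream of the start, within the long non-coding RNA gene Gm26608. It differed by 0.14 ± 0.14 and 0.29 ± 0.14 (limma, adjusted p = 0.646 and 0.248), and by 0.37 in Fbxl5-deleted mice without the libraries that stood apart. The regions with the lowest p were 28093871 to 28094296 in Fbxl5-deleted mice (−0.55 ± 0.20, adjusted p = 0.147) and 28066254 to 28066617 in control mice (0.42 ± 0.20, adjusted p = 0.243, limma), so no Insig1 region was called.

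Insig2 spans chromosome 1 from 121304353 to 121332662 on the minus strand, with 3 annotated starts and 18 tested regions. A region over both downstream starts (121327275 to 121328466) was in all 12 lists. It had values of 3.11, 2.78 and 3.37 in Fbxl5-deleted DDC libraries, against 3.54, 3.38 and 3.6 in Fbxl5-deleted standard-diet libraries, which did not overlap. In control mice they were 3.04, 2.71 and 3.34 on DDC, against 3.44, 3.06 and 3.46 on the standard diet, which did. The differences were −0.42 ± 0.20 and −0.29 ± 0.20 (limma, adjusted p = 0.279 and 0.431). The farthest upstream start carried only a weak region (121332464 to 121332862), found with DDC in 1 library of 6 and with the standard diet in 3 of 6.

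The called Insig2 region (121344522 to 121344872) lies 11.9 kb upstream of the outermost start, outside any annotated gene. It was listed in 3 of 3 DDC libraries of each genotype, against 1 of 3 Fbxl5-deleted and 0 of 3 control standard-diet libraries. On DDC its values were 1.84, 2.16 and 2.36 in Fbxl5-deleted mice and 2.25, 2.09 and 1.99 in control mice. The 1 standard-diet library that held it had 1.41, so DDC and standard-diet libraries did not overlap in either genotype. The difference was 0.80 ± 0.23 in Fbxl5-deleted mice (adjusted p = 0.0578) and 0.84 ± 0.23 in control mice, where it passed (limma, adjusted p = 0.0275). This call ended without any 1 of the 3 control standard-diet libraries or control DDC library 1 or 2, where the difference was 0.77 to 0.85 and the adjusted p 0.0742 to 0.0893 (limma). Without the Fbxl5-deleted libraries that stood apart the difference there was 0.85 (limma, adjusted p = 0.276).

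Abca1, the exporter that loads cholesterol onto apolipoprotein A-I, is the longest member, on chromosome 4 from 53030789 to 53159988 on the minus strand. It had 45 tested regions, 19 of them in all 12 lists. At the start region (53158564 to 53160295) the values were 3.27, 3.34 and 3.14 in Fbxl5-deleted DDC libraries, 3.25, 3.02 and 3.32 in control DDC libraries, 3.58, 3.51 and 3.65 in Fbxl5-deleted standard-diet libraries and 3.44, 3.33 and 3.37 in control standard-diet libraries. DDC libraries were below standard-diet libraries of the same genotype without overlap. The differences of −0.33 ± 0.15 and −0.19 ± 0.15 did not pass (limma, adjusted p = 0.267 and 0.529). The strongest region, 6.7 kb beyond the gene's far end (53023179 to 53024053), differed by 0.13 ± 0.12 and 0.05 ± 0.12 (limma, adjusted p = 0.616 and 0.859), and by 0.26 in Fbxl5-deleted mice without the libraries that stood apart.

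Inside Abca1, 1 region was higher and 2 were lower on DDC. The higher one (53130981 to 53131413), 28.5 kb past the start, was in all 12 lists. It had values of 3.22, 3.23 and 3.06 in Fbxl5-deleted DDC libraries, 3.34, 3.23 and 3.21 in control DDC libraries, 2.96, 3.03 and 2.93 in Fbxl5-deleted standard-diet libraries and 2.31, 2.70 and 2.62 in control standard-diet libraries. Control standard-diet libraries were thus the lowest of the 4 groups, with no overlap. The diet difference was 0.19 ± 0.18 in Fbxl5-deleted mice, which did not pass (adjusted p = 0.618), and 0.71 ± 0.18 in control mice, which did (limma, adjusted p = 0.0195). The difference between these, −0.52 ± 0.26, did not pass (limma, adjusted p = 0.851). The call ended without control standard-diet library 1 (0.60, adjusted p = 0.0839), control DDC library 1 (0.67, adjusted p = 0.0732) or control DDC library 2 (0.73, adjusted p = 0.0596, limma).

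The lower one of control mice (53046701 to 53047042), 112.9 kb past the start, was also in all 12 lists. Its values were 2.30, 2.07 and 2.29 in Fbxl5-deleted DDC libraries, 2.25, 1.46 and 1.7 in control DDC libraries, 2.21, 2.72 and 2.31 in Fbxl5-deleted standard-diet libraries and 3.24, 2.82 and 2.49 in control standard-diet libraries. The diets overlapped in Fbxl5-deleted mice and did not in control mice. The difference was −0.19 ± 0.27 in Fbxl5-deleted mice (adjusted p = 0.753) and −1.05 ± 0.27 in control mice (limma, adjusted p = 0.0219). Between genotypes the diet effects differed by 0.85 ± 0.38, which did not pass (limma, adjusted p = 0.850). Without the libraries that stood apart the values were −0.50 in Fbxl5-deleted mice and 0.54 for the difference of diet effects. The call ended without control standard-diet library 1 (−0.85) or 2 (−1.06) or control DDC library 2 (−0.88) or 3 (−0.99), with adjusted p from 0.0622 to 0.113 (limma).

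Another Abca1 region (53153647 to 53154039), 5.9 kb past the start, was called in Fbxl5-deleted mice. It had 1.36, 1.86 and 1.63 in Fbxl5-deleted DDC libraries, against 2.62, 2.43 and 2.78 in Fbxl5-deleted standard-diet libraries. In control mice it had 1.60, 1.27 (not listed) and 1.42 on DDC, against 2.56, 2.19 and 1.67 on the standard diet. DDC libraries lay below standard-diet libraries in both genotypes. The difference was −0.99 ± 0.27 in Fbxl5-deleted mice (adjusted p = 0.0468) and −0.71 ± 0.27 in control mice, which did not pass (limma, adjusted p = 0.121). The call held only without control standard-diet library 1 or 3, and ended in the other 10 fits that left out 1 library (−1.12 to −0.86, adjusted p = 0.0587 to 0.157, limma). Without both Fbxl5-deleted libraries that stood apart it was −0.81 (limma, adjusted p = 0.405).

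**Figure D3:**
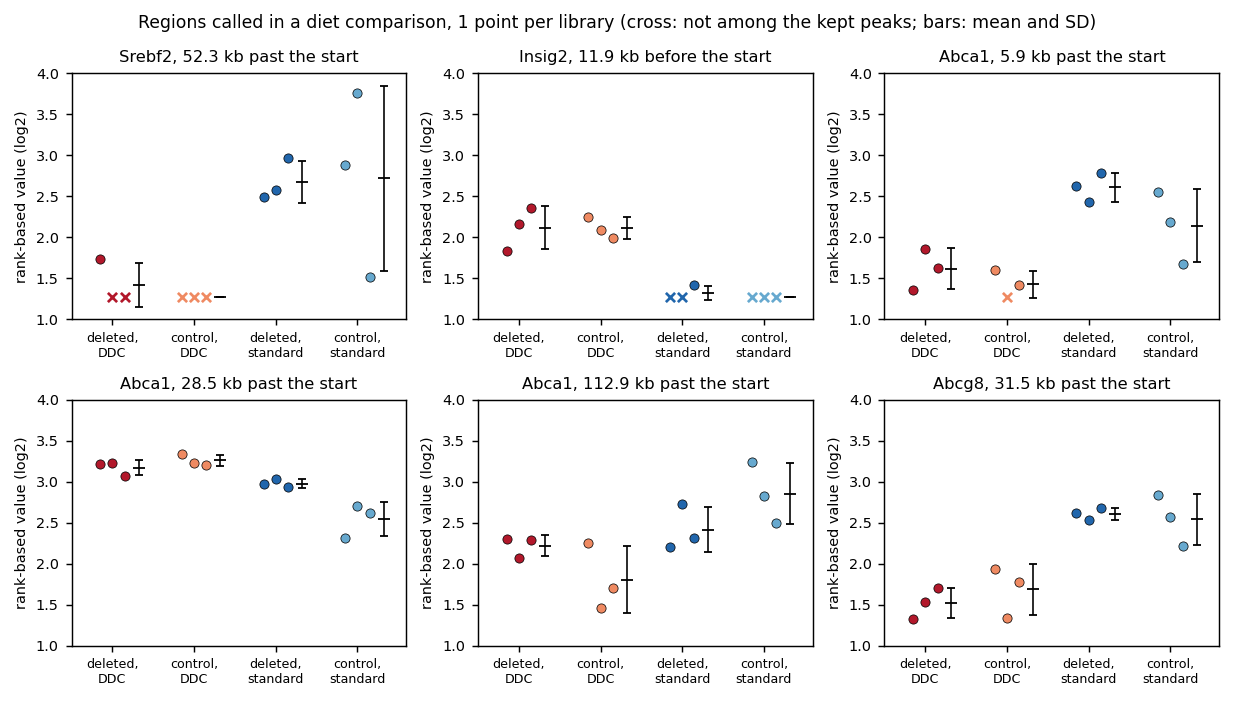
Rank-based value (y axis, log2) of the 6 regions called in a diet comparison, in each library (points, with crosses where the region was not among the kept peaks), with mean and SD (bars, n = 3). The Insig2 and the second Abca1 panel (28.5 kb) are higher in the DDC groups, and the other 4 are lower in the DDC groups, which for Abca1 at 112.9 kb holds without overlap in control mice only.

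Abcg5 and Abcg8 encode the half-transporters that together move cholesterol into bile. Abcg5 spans chromosome 17 from 84658174 to 84683011 on the minus strand and Abcg8 from 84676302 to 84700333 on the plus strand, with 18 and 17 tested regions. Abcg8 has another annotated start at 84676302, inside Abcg5, and no tested region lay within 500 bp of it. Their shared start region (84682692 to 84683846) had values of 3.48, 3.54 and 3.72 in Fbxl5-deleted DDC libraries, 3.25, 3.49 and 3.70 in control DDC libraries, 3.89, 3.63 and 3.68 in Fbxl5-deleted standard-diet libraries and 3.55, 3.57 and 3.70 in control standard-diet libraries. The groups overlapped in every pairing of diet and genotype. The diet differences were −0.15 ± 0.15 and −0.13 ± 0.15 (limma, adjusted p = 0.637 and 0.688), and −0.05 in Fbxl5-deleted mice without the libraries that stood apart. A region inside Abcg5 (84672081 to 84672851) had a higher value on DDC, at 0.36 ± 0.18 in Fbxl5-deleted and 0.24 ± 0.18 in control mice, and did not pass (limma, adjusted p = 0.298 and 0.473), with 0.17 in Fbxl5-deleted mice without the libraries that stood apart. The strongest region near Abcg5 (84653352 to 84653961), inside the neighbour Dync2li1, differed by 0.01 ± 0.14 and −0.24 ± 0.14 (limma, adjusted p = 0.978 and 0.331), and by −0.02 in Fbxl5-deleted mice without the libraries that stood apart. No region within Abcg5 or Abcg8 was called.

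The region called in both genotypes lies in the Abcg8 window but inside another gene, Lrpprc, at 84714588 to 84715337, 14.3 kb past the end of Abcg8. Lrpprc encodes a protein that stabilises mitochondrial messenger RNA. The values were 1.33, 1.53 and 1.7 in Fbxl5-deleted DDC libraries, 1.94, 1.34 and 1.78 in control DDC libraries, 2.62, 2.53 and 2.68 in Fbxl5-deleted standard-diet libraries and 2.83, 2.57 and 2.22 in control standard-diet libraries. All 6 DDC libraries were below all 6 standard-diet libraries. The difference was −1.09 ± 0.26 in Fbxl5-deleted mice (adjusted p = 0.0224) and −0.85 ± 0.26 in control mice (limma, adjusted p = 0.0493). In Fbxl5-deleted mice the call ended without standard-diet library 1 or 3 or DDC library 1 or 2 (−1.10 to −0.99), and without both libraries that stood apart (−1.01, limma, adjusted p = 0.239). In control mice it ended in 10 of 12 fits that left out 1 library and held without control standard-diet library 3 or Fbxl5-deleted standard-diet library 1 (−0.98 to −0.68 where it ended, adjusted p = 0.0529 to 0.218, limma). It also ended without both libraries that stood apart (−0.85, limma, adjusted p = 0.0543).

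**Figure D4:**
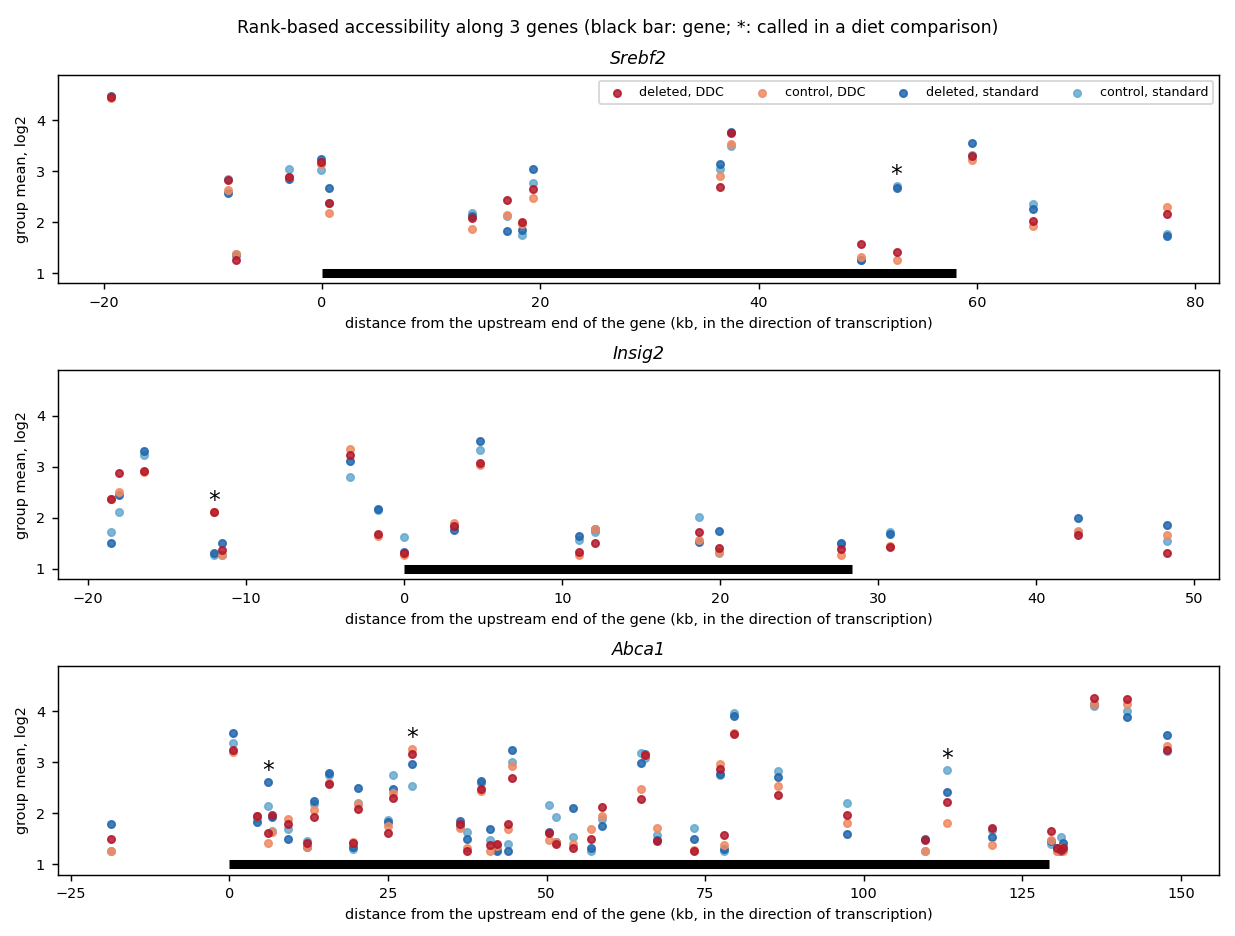
Group mean of the rank-based value (y axis, log2) of each tested region against its distance from the upstream end of the gene (x axis, kb), for Srebf2, Insig2 and Abca1, with the gene as a black bar and regions called in a diet comparison starred. The starred regions lie away from the starts, at 52.3 kb in Srebf2, 11.9 kb upstream of Insig2 and 5.9, 28.5 and 112.9 kb into Abca1.

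With the number of strong peaks per library as a covariate, an alternative added after seeing the data, none of the 6 called regions passed (limma, adjusted p = 0.0961 to 0.470). That number itself nearly followed diet (70044 to 86745 on DDC, 46949 to 70517 on the standard diet). This fit can therefore hardly separate it from diet, and the lost calls decide nothing. The differences were then −0.83 at Abca1 and −0.83 in the Abcg8 window in Fbxl5-deleted mice. In control mice they were −1.51 at Srebf2, 0.87 at Insig2, 0.65 and −1.05 at Abca1 and −0.67 in the Abcg8 window. In that fit 1 other region, at 121335644 near Insig2, passed in control mice, at 0.83 (limma, adjusted p = 0.0497). Start peaks of macrophage markers had a summed fold enrichment of 2.62 to 5.99 in DDC libraries and 0 to 3.02 in standard-diet libraries, with the Kupffer cell marker Clec4f at 0 throughout and none of the 3 listed starts in all 12 lists. Lymphocyte starts were at 0 in every library. The same sum for cholangiocyte markers was 13.9 to 20.3 on DDC and 17.4 to 23.9 on the standard diet. For stellate markers it was 14.3 to 26.8 on DDC and 15.1 to 25.4 on the standard diet. For sinusoidal endothelium it was 2.68 to 4.77 and 2.65 to 3.56, and for hepatocytes 29.6 to 31.0 and 26.8 to 33.6. In Fbxl5-deleted mice on DDC, 3 of 37 stellate regions were higher and 1 lower, all 4 at Reln, 1 of 53 endothelial regions was higher and none of the other cell type lists had a call, against 2.43% higher and 0.74% lower over all regions. In control mice on DDC, 1 of 31 macrophage regions was higher and 0 lower, with 3 and 0 of 37 for stellate cells, 5 and 4 of 53 for sinusoidal endothelium, 0 and 2 of 19 for cholangiocytes, 0 and 2 of 26 for lymphocytes and 0 and 1 of 106 for hepatocytes, against 4.66% higher and 2.35% lower over all regions. In Fbxl5-deleted mice 0 stellate regions were higher and 1 was lower when the libraries that stood apart were left out. The part of these cells in the differences at the cholesterol genes was not tested.

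Deletion of Fbxl5 changed no region of the 7 genes past the test. On DDC 0 of 119 were called, against 0% of all regions, with 1 at an unadjusted p under 0.05 (0.840%) against 5.94% of all regions (limma). On the standard diet 0 were called, against 0.000722% of all regions, with 12 at an unadjusted p under 0.05 (10.1%) against 8.07% (limma). The median difference was 0.03 on either diet. Libraries of the genotypes did not overlap at 2 regions on DDC (1.68%, against 9.65% of all regions) and at 11 on the standard diet (9.24%, against 9.54%). The difference of diet effects between genotypes was called at 0 regions, against 0% of all, with 3 at an unadjusted p under 0.05 (2.52%) against 5.87% (limma). These comparisons share libraries with the diet comparisons. The unadjusted count for the difference of diet effects was higher without the libraries that stood apart, a fit with 1 Fbxl5-deleted standard-diet library left.

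Start regions showed no genotype call. On DDC their differences ran from −0.03 to 0.30 with adjusted p from 0.966, and on the standard diet from 0.06 to 0.29, positive at 7 of 7, with adjusted p from 0.812 (limma). On the standard diet 67.8% of the 11347 start regions of the genome were positive as well. Without the libraries that stood apart, 5 of 7 were positive there (−0.11 to 0.14), against 54.8% of those of the genome. The lowest p on the standard diet belonged to a region in Dync2li1, 15.8 kb from Abcg5 (84641950 to 84642405), with 2.21, 2.69 and 2.19 in Fbxl5-deleted and 2.78, 2.95 and 3.28 in control libraries. These did not overlap, and the difference of −0.64 ± 0.23 did not pass (limma, adjusted p = 0.460). It was −0.32 without the libraries that stood apart (limma, adjusted p = 1). An Abca1 region 53.9 kb past the start (53105526 to 53106007) had 2.34, 2.09 and 1.89 in Fbxl5-deleted and 1.47, 1.54 and 1.60 in control libraries, a difference of 0.57 ± 0.22 (limma, adjusted p = 0.489). On DDC it was listed in 1 of 3 libraries of each genotype. A region inside Insig2 (121312592 to 121312912) differed by 0.42 ± 0.19 and another (121313806 to 121314258) by −0.50 ± 0.24, so the direction varied within 1 gene (limma, adjusted p = 0.582 and 0.605). The second of these was −0.76 without the libraries that stood apart.

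The other lowest-p regions of single genes give the range of what was not called. In Srebf2 a region 36.9 kb past the start (82184161 to 82185352) had 3.82, 3.73 and 3.73 in Fbxl5-deleted DDC libraries, against 3.53, 3.43 and 3.67 in control DDC libraries. The genotypes did not overlap on DDC, with differences of 0.21 ± 0.14 there and 0.28 ± 0.14 on the standard diet (limma, adjusted p = 0.966 and 0.652), the standard-diet one being 0.09 without the libraries that stood apart. Upstream of Insig2 by 17.8 kb, a region (121350434 to 121351038) differed between genotypes by 0.37 ± 0.25 on DDC (limma, adjusted p = 0.967). Inside Abcg5, 2 weak regions in 3 and 5 lists (84662771 to 84663252 and 84673154 to 84673378) had differences of 0.18 ± 0.17 on DDC and −0.42 ± 0.17 on the standard diet, with adjusted p of 1 and 0.506 (limma). In Srebf2 the region 16.8 kb past the start (82164057 to 82164439) had the lowest p of this gene for the difference of diet effects, at 0.58 ± 0.41 (limma, adjusted p = 0.898), and it was 0.01 without the libraries that stood apart.

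Other genes of the pathway came from lists chosen with earlier results of these data known. Their regions overlapped the gene's span or lay within 20 kb of it. A value given for a gene is that of such a region, which can lie in a neighbouring gene. With both directions pooled, the lists' shares of called regions were below or near the background of 3.17% in Fbxl5-deleted and 7.01% in control mice. By direction, the background was 2.43% higher and 0.74% lower in Fbxl5-deleted mice, and 4.66% higher and 2.35% lower in control mice. Of 179 regions of 18 sterol synthesis genes, 1 was higher and 0 lower on DDC in Fbxl5-deleted mice (0.559%), and 4 were higher and 9 lower in control mice (7.26%). In control mice the calls of this list thus leaned lower, whereas over all regions more were higher. The list's medians were −0.06 in Fbxl5-deleted and −0.08 in control mice. The region called in both was at Dhcr7, which encodes the reductase of the last step to cholesterol, at 1.15 ± 0.25 in Fbxl5-deleted and 1.57 ± 0.25 in control mice (limma, adjusted p = 0.0118 and 0.000499). In control mice a region at Cyp51, lanosterol demethylase, was at −1.28 ± 0.26 (limma, adjusted p = 0.00463). Regions at Msmo1, a methylsterol oxidase gene, were at 1.25 ± 0.28 and −0.94 ± 0.27 (limma, adjusted p = 0.00987 and 0.0380). Called regions at Fdft1 ran from −1.17 ± 0.32 to 0.76 ± 0.22 (limma, adjusted p = 0.0270 and 0.0357), all but the last being lower. Of 238 regions of 18 genes of sterol sensing, uptake, transfer, storage and export, 1 was higher and 2 lower in Fbxl5-deleted mice, all at Lipc (1.261%), and 7 were higher and 6 lower in control mice (5.46%), with medians of −0.07 and −0.04. Among these were Soat2, which encodes a cholesterol-esterifying enzyme, at 1.58 ± 0.27 in control mice (limma, adjusted p = 0.00127), and the hepatic lipase gene Lipc, at 1.22 ± 0.24 in Fbxl5-deleted and 1.40 ± 0.24 in control mice (limma, adjusted p = 0.00723 and 0.00123). Both lower regions of Fbxl5-deleted mice were also at Lipc, at −1.15 ± 0.27 and −0.66 ± 0.17 (limma, adjusted p = 0.0220 and 0.0302). A region at Mbtps2, the gene of a protease that cuts SREBP, was at 1.38 ± 0.29 in control mice (limma, adjusted p = 0.00536). The 6 lower regions of control mice included Stard4 at −1.34 ± 0.26 and Ufd1 at −0.90 ± 0.27 (limma, adjusted p = 0.00268 and 0.0487). Others were at Srebf1, the gene of the related factor SREBP-1, at −1.11 ± 0.25, and at Abcg1, another sterol exporter, at −0.89 ± 0.26 (limma, adjusted p = 0.00989 and 0.0440). Scap, the SREBP escort, had regions at −0.97 ± 0.24 and −0.92 ± 0.27 (limma, adjusted p = 0.0175 and 0.0403). The Srebf1 region and the first Scap region took the lowest value in every control DDC library. The higher Fdft1 region took it in every control standard-diet library, and both lower Lipc regions in every Fbxl5-deleted DDC library. These differences therefore have no true size. At Abcg1, Cyp51, Msmo1, Dhcr7 and Soat2 part of a compared group was also at the lowest value. Without the libraries that stood apart, Fbxl5-deleted mice had 0 higher and 1 lower synthesis region and 1 higher and 0 lower region of the other list. Neither list had a call between genotypes or for the difference of diet effects.

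Across the 12 libraries, the list start regions whose values followed those of a member most closely, among 31 candidates, were Cyp51 for Abca1 (Pearson's r = 0.87) and for the second Srebf2 start region (0.79), Sc5d for the first Srebf2 start region (0.76), Ebp for Insig1 (0.76), Npc2 for Insig2 (0.73), Hsd17b7 for Sqle (0.72) and Scap for Abcg5 and Abcg8 (0.69). These correlations are given as a description over libraries that share diet groups and list strength.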

How the data were processed

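ATAC-seq peak lists of 12 mouse libraries were used. Per the submitters' processing notes, the tools were MACS2, Bowtie2, fastp, SAMtools, bedtools, Picard and deepTools, and the build was mm10. No source used here gives their order, versions or settings, or says whether reads were shifted to the transposase's cut. In the deposited lists, 1 per library, column 7 is the authors' fold enrichment, a ratio of peak height to a background, followed by their −log10 p and −log10 q, also as deposited. Every list reached down to a −log10 p of 1.301 or 1.302.

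The members and gene lists were chosen with earlier results of these data known. Summits of 1 peak were merged, and each library was limited to its 137034 peaks of highest fold enrichment, which is the length of the shortest list, with ties broken at random (seed 1). Of the tied weakest peaks, 22149 of 90277 and 7279 of 88068 were kept in Fbxl5-deleted standard-diet libraries 1 and 3. Kept peaks overlapping by at least 1 bp were joined, and tied peaks shared their mean value. Regions kept in at least 3 libraries went into limma 3.58.1 under R 4.3.3 (trend and robust settings, 4 group means, 8 residual degrees of freedom, two-sided, Benjamini-Hochberg over all regions). Tests on simulated data with 200 changed regions recovered 50 of 105 at a log2 change of 1 and 95 of 95 at 2, with 8 false calls. These changes were placed only in regions kept in most libraries, and the simulated noise had no lowest value. The recovery therefore does not apply to regions missing from whole groups. Counts of kept peaks at the member genes, 1 count per library, were compared by exact permutation with strata. Named regions were, per gene, those within 500 bp of a start (or at the gene's end), the highest, those called, and the lowest p of each comparison. Ranking hides a change of all regions alike. Gene spans and starts came from RefSeq tables without exons, so exons and introns were not assigned. The other software was scipy 1.17.1, pandas 2.3.3, numpy 2.4.6, matplotlib 3.10.9 and Python 3.11.15.

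Alternatives were all deposited peaks, a stricter −log10 q, a 50% reciprocal overlap, other region filters, centred log2 fold enrichment, a replicate block and leaving out libraries. Averaged effects and the covariate were added after seeing the data.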

Additional observations from a re-analysis of the deposited data

How the results depend on the processing

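In Fbxl5-deleted mice on DDC, where 2 regions were called, both lower, the count was 2 with all deposited peaks (1 higher, 1 lower), 1 with a −log10 q of at least 5 (higher, with neither of the 2 regions), 0 with 50% reciprocal overlap, 0 without a filter, 4 for regions kept in at least 6 libraries (1 higher, 3 lower), 0 with centred log2 fold enrichment, 1 with a replicate block, 0 without the libraries that stood apart, 0 with the number of strong peaks as a covariate and 10 for the diet effect averaged over genotypes (13% of all regions), and 0 to 3 with 1 library left out, with 0 without Fbxl5-deleted DDC library 1 or 2 or Fbxl5-deleted standard-diet library 3, and 1 without any other library except the 3 control standard-diet ones (a higher region without Fbxl5-deleted standard-diet library 1). In control mice 2 higher and 3 lower regions were called. The count was 2 with a −log10 q of at least 5, both higher. Of the 5 called regions only that at 53130981 in Abca1 passed there. The count was 1 with 50% reciprocal overlap (higher) and 1 without a filter on regions (lower). It was 1 with the covariate (higher, and none of the 5) and 10 for the averaged effect. With 1 library left out it ranged from 0 to 5, with 0 without control DDC library 2. It was 1 without control DDC library 1 (lower) or control standard-diet library 2 (higher), and 2 without control DDC library 3 (both higher). Without control standard-diet library 1 it was 2, both lower, and neither was among the 5. No called region changed direction in the fits that gave it a value, and the 50% reciprocal overlap gave none for the called regions at 82199597 in Srebf2 and 84714588 near Abcg8, and counts between genotypes and for the difference of diet effects stayed at 0. The averaged effect included 3 regions called in neither genotype alone besides that at Sqle, namely 121351115 near Insig2 (0.76) and 53080242 and 53094879 in Abca1 (−0.37 and −0.71). Same-numbered libraries did not deviate together (18 correlations from −0.024 to 0.057), and under the block the regions at 53153647 in Abca1 (Fbxl5-deleted mice) and 84714588 near Abcg8 (control mice) no longer passed (limma, adjusted p = 0.0606 and 0.0602).

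The diet difference in peaks at the 7 loci, −12.7, turned to 6.33 with all deposited peaks (p = 0.15, exact permutation) and 7.50 at a −log10 q of 5 or more (p = 0.105, exact permutation), and ranged from −16.25 to −8.50 with 1 library left out, the first of these, without Fbxl5-deleted DDC library 3, having p = 0.025 (exact permutation). The genotype difference, −0.333 (119.8 ± 10.6 in Fbxl5-deleted and 120.2 ± 14.96 in control libraries, p = 0.99, exact permutation), was 6.67 with all deposited peaks, −5.83 with a −log10 q of 5 or more, 0.167 without the libraries that stood apart, and −3.92 to 3.83 with 1 left out. The cause of these changes was not tested. Depth is unknown, and with 3 libraries a group, weak regions near the lowest value limit what could be called.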
